A study of Drosophila melanogaster with 16 samples.

Results

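The Dpr and DIP genes encode immunoglobulin-domain proteins of the neuronal cell surface. Dpr proteins, named after defective proboscis extension response, bind the Dpr-interacting proteins (DIPs) across the cleft in particular pairs, and such pairs help neurons to choose synaptic partners, to place their terminals and to survive in the fly visual system and at the larval neuromuscular junction. Binding assays sort them into groups: DIP-eta, DIP-theta and DIP-iota bind members of the group dpr1 to dpr5. DIP-alpha binds dpr6 and dpr10, and DIP-beta binds dpr6, dpr8, dpr9, dpr10, dpr11, dpr15 and dpr21. DIP-gamma binds dpr11, dpr15, dpr16 and dpr17, DIP-delta binds dpr12, and DIP-epsilon and DIP-zeta bind the group of dpr13, dpr14, dpr18, dpr19 and dpr20. Members were every gene of the deposited tables named dpr with a number or DIP with a Greek letter, a rule that uses names and no measured value. That gave 32 of 17299 genes in the single-cell table (21 dpr genes and 11 DIP genes). The bulk table held 28 of them, without DIP-epsilon, DIP-iota, DIP-kappa and DIP-lambda.

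The study asked which transcripts tell apart the clock neurons of the adult Drosophila melanogaster brain, above all the dorsal neurons of group 3 (DN3). Single cells were sorted from brains of Clk856-GAL4 flies that also carried the split-GAL4 parts R11B03-AD and VT002670-DBD and UAS-EGFP, so every cell came through the same drivers. Flies of both sexes were kept in light and dark cycles, and 10 libraries covered 6 Zeitgeber times (ZT, hours after lights on), where ZT10 and ZT18 had 1 library and the other times had 2. Bulk libraries were made at ZT02 from GFP-positive neurons of 3 drivers, each with UAS-EGFP and 2 replicates (A and B): R11B03-AD with R77H08-DBD (R77H08), R11B03-AD with VT055068-DBD (VT055068) and split-0367. A GFP-positive cell is one in which a driver was active, so the drivers limit which neurons were seen and admit cells that are not clock neurons. Each library pools several brains.

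The single-cell table held 23921 cells with library totals of 3518519 to 32385361 UMIs (counted transcript molecules), median 14973458. Of its cell barcodes, 55 were in 2 libraries (110 cells). A cell counted as a clock cell with UMIs of at least 3 of the 5 genes Clk, per, cwo, tim and vri, which 10015 cells met. Gates on marker genes then took 3339 of these cells into 1 gate each, with no Dpr or DIP gene used. Of the gates, 8 had enough cells: Pdf (313 cells, 7 libraries), AstA (692, 8), CCHa1 (265, 7), CNMa (313, 6), CrzR with ct (285, 8), Pvf3 (576, 9), br with Cht6 (482, 10) and CG34351 (389, 10). Median UMIs per cell ran from 3920.5 in the Pvf3 gate to 15508 in the Pdf gate. Among 24 marker and gate pairs that the gates did not use, 19 markers were highest in their own gate, among them Fer2 and opa in the Pdf gate, unc-4 and kn in AstA, HLH4C and slp1 in CCHa1, gl and CG43689 in CNMa, hbs and Myo31DF in Pvf3 and Gyc32E in CrzR with ct. The other 5 were highest elsewhere: zfh2 of Pdf and cry of CNMa in the CCHa1 gate, Pka-C3 of Pvf3 in Pdf, TrissinR of CrzR with ct in Pvf3 and rn of br with Cht6 in CrzR with ct, which it also marks. The br with Cht6 gate thus had no marker of its own beyond those that set the gate, and CG34351 had 1 (mtt). The markers were listed with earlier results of these data known, so these counts are not an independent check of the gates. The neuron markers elav, nSyb and brp summed to a median of 24.7 TP10K in the Pdf gate and 34.8 to 41.6 in the others. The glia markers repo, alrm and moody summed to at most 0.677 TP10K in any library of a gate. A level in TP10K is a gene's UMIs per 10000 UMIs of the cells of 1 gate summed in 1 library. In the Pdf gate Pdf itself took 2025 TP10K. These levels are not per length and were not set against each other between genes.

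The CG34351 gate also held cells with ct, a marker of another gate. In it 14.1% of the cells had at least 2 UMIs of ct, against 2.17% of the gate's cells with at least 4 clock genes and 41.1% of the cells with no clock gene. Their part in the results of this gate was not tested beyond the setting of at least 4 clock genes. For the cells marked by Achl, the gate as first set held 24 cells and no library with 10, so it entered no fit.

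Each gate carried its own combination of Dpr and DIP transcripts. Taking a median of at least 1 TP10K over a gate's libraries as present, dpr7, dpr12 and dpr21 were present in all 8 gates, 10 members were in none, 3 in 1 gate (dpr5, dpr17 and DIP-kappa) and 16 in 2 to 7 gates. The CNMa gate had 7 members present, the fewest, and the AstA and br with Cht6 gates had 15 each. Any pair of gates differed in 4 to 12 members (median 8 over 28 pairs). Some medians lay close to 1 TP10K, such as 1.01 for DIP-gamma in Pdf and 0.977 for dpr13 in Pvf3, so presence there depends on the threshold. The share of all genes that differ between gates in this way is not given, so these counts are not a result about the members. Each gate was then compared with the mean of the other 7 in 1 edgeR quasi-likelihood fit with the library as a block. A call needed a Benjamini-Hochberg adjusted p under 0.05 over all 5871 genes tested and at least 2-fold. Of the 32 members 30 passed the filter on low counts, DIP-alpha and DIP-iota not, and 122 of 240 tests gave a call. A comparison of each gate with the others uses the same libraries of all gates, so the 8 comparisons are not independent.

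Members were called more often than genes at large as higher in all 8 gates, and as lower in 7, all but CG34351. In the Pdf gate 6 members were higher and 17 lower (8.82% and 7.94% of all genes). For the AstA gate 10 members were higher and 7 lower (5.01% and 2.76% of all genes). The CCHa1 gate gave 10 members higher and 9 lower (5.91% and 3.56% of all genes). CNMa cells had 6 higher and 11 lower (6.83% and 4.58%). Of the DN3 gates, CrzR with ct had 6 higher and 8 lower (3.87% and 3.88%) and Pvf3 11 higher and 4 lower (4.26% and 5.55%). The br with Cht6 gate had 9 higher and 2 lower (4.05% and 3.97%), and CG34351 had 6 higher and 0 lower (4.80% and 2.08%). Without adjustment 4 members were lower in CG34351 at p under 0.05, and DESeq2 called 1. In each case the count is out of 30 members tested. The lower share in the br with Cht6 gate, 2 of 30, was near that of all genes. Of the 28 members called in some gate, 26 were called higher in one gate and lower in another. A gate with a high level raises the mean that the other gates are set against, so calls both ways follow in part from the design. The share of all genes called both ways is not given here, so this count is not a result about the members. The median log2 difference of the members ran from -1.22 in the Pdf gate to 0.63 in the Pvf3 gate, where the medians over all genes were 0.03 and -0.01. With library totals in place of TMM factors, the median of all genes moved by 0.29 in the Pvf3 gate and by -0.25 in the Pdf gate. The splits became 3 higher and 12 lower in CNMa, 14 and 4 in Pvf3 and 9 and none in CG34351, and no member changed direction. Of 9 other immunoglobulin-domain surface genes (Lac, klg, wrapper, Ama, cDIP, Fas2, Fas3, Nrg and Cont) 6 were tested, and between 0 and 4 were higher and between 0 and 3 lower in a gate.

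**Figure D1:**
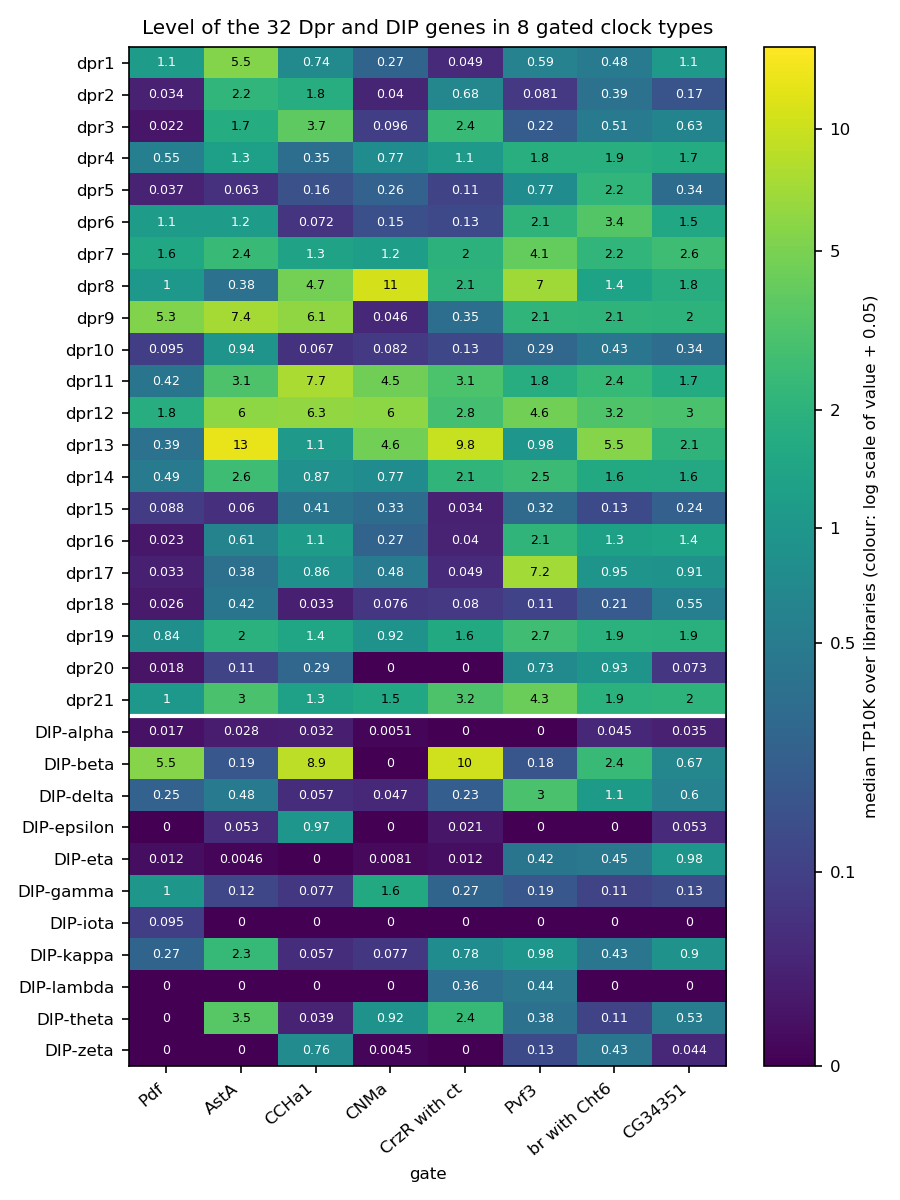
Median level in TP10K over the libraries of each gate (columns) for the 21 dpr genes (above the white line) and the 11 DIP genes (rows), with the value in each cell and colour on a log scale. No 2 columns show the same set of members, with dpr12 at 1.75 to 6.26 in every gate and DIP-beta at 0 in CNMa and 10.5 in CrzR with ct.

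**Figure D2:**
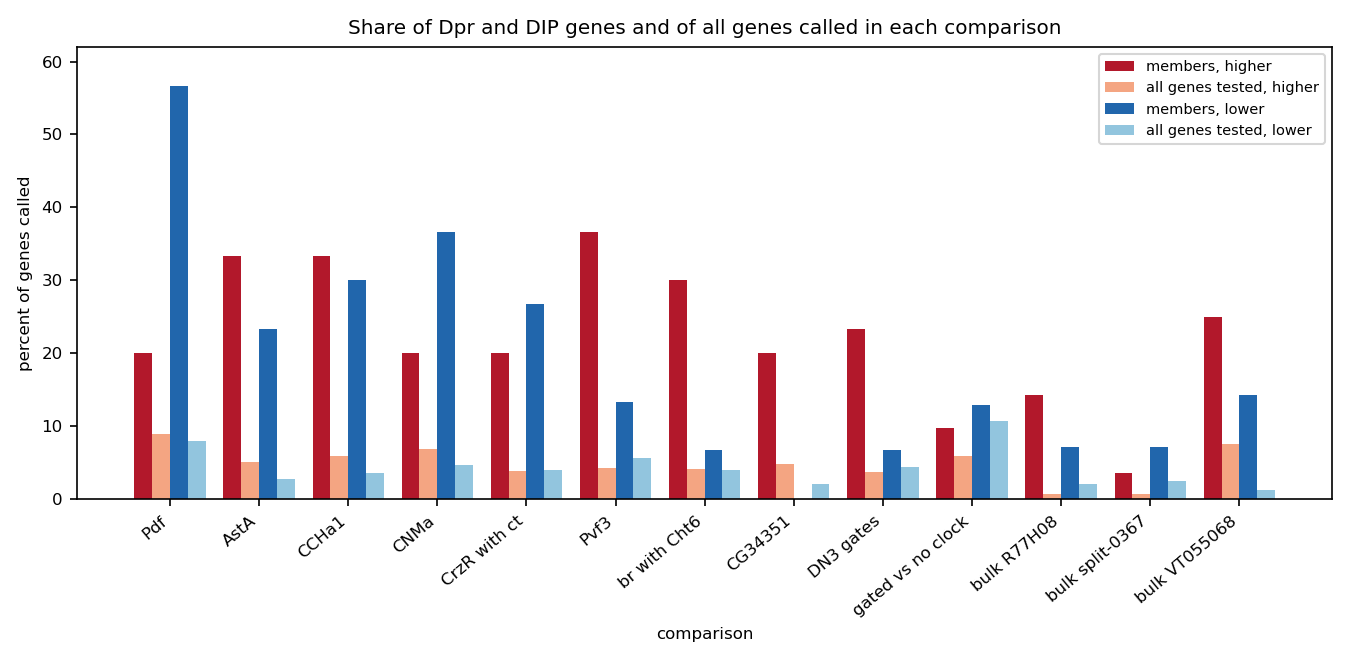
Percent of the Dpr and DIP genes tested (dark bars) and of all genes tested (light bars) called higher (red) or lower (blue) in each comparison of gates, cell classes and bulk drivers (x axis), without error bars since each bar is a count. In the Pdf gate 56.7% of members against 7.94% of genes were lower.

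Among the DIPs, DIP-beta (chrX:21422115-21457738, dm6, minus strand) was graded over the gates, from near 0 in CNMa to its highest in CrzR with ct. Its lowest, median and highest library levels were 6.17, 10.5 and 13.6 TP10K in the CrzR with ct gate, 5.41, 8.91 and 10.6 in CCHa1 and 3.36, 5.51 and 11.5 in Pdf. These 3 gates overlapped each other. The br with Cht6 gate followed with 1.55, 2.45 and 3.56 TP10K and overlapped Pdf alone of these 3. CG34351 had 0.343, 0.673 and 1.11 TP10K, AstA had 0.0250, 0.189 and 0.730 and Pvf3 had 0.0474, 0.184 and 0.407, and these overlapped each other and no gate above. In the CNMa gate 2 UMIs were counted in 6 libraries, and 6 gates lay wholly above it. DIP-beta was called higher in CrzR with ct (log2 difference 4.06 ± 0.21 (SE), adjusted p = 4.3e-22), CCHa1 (log2 difference 3.81 ± 0.22 (SE), adjusted p = 4.2e-20) and Pdf (log2 difference 3.66 ± 0.23 (SE), adjusted p = 1.7e-19), where the mean of the other gates contains the near-empty CNMa gate. It was called lower in the CNMa gate (adjusted p = 7.8e-14), with 747 times as many UMIs per total in the other gates pooled (95% counting interval 207 to 6165), and in Pvf3 (log2 difference -2.99 ± 0.75 (SE), adjusted p = 0.0013). The Pvf3 call was lost without cells over 15000 UMIs (-3.14, adjusted p = 1.0), where CNMa was left with 0 UMIs, and the calls in Pvf3 (-1.47, adjusted p = 1.0) and CNMa (-6.46, adjusted p = 1.0) were lost with sums of at least 5 cells, where 12 Achl cells with 0 UMIs entered the mean. At 3000 UMIs per cell, 85.4% of CrzR with ct cells, 5.89% of AstA cells and 0.334% of CNMa cells had a DIP-beta UMI, and 94.7%, 14% and 0.958% before thinning, which left out 5, 30 and 14 cells. Median depths were 11997, 11568 and 12722 UMIs.

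DIP-theta, of the group that binds dpr1 to dpr5, was led by the AstA gate and CrzR with ct. Its levels were 2.06, 3.51 and 5.70 TP10K in AstA and 1.23, 2.36 and 3.84 in CrzR with ct, and AstA libraries lay wholly above 6 gates and overlapped CrzR with ct. The CNMa gate had 0.442, 0.916 and 1.13 TP10K, wholly above 3 gates and below 2. All were called higher: AstA log2 difference 3.90 ± 0.19 (SE), adjusted p = 4.9e-24, CrzR with ct log2 difference 3.34 ± 0.21 (SE), adjusted p = 2.3e-19 and CNMa log2 difference 1.54 ± 0.26 (SE), adjusted p = 3.3e-06. In the Pdf gate DIP-theta gave 5 UMIs in all, 0, 0 and 0.0432 TP10K with 4 of 7 libraries at 0 (log2 difference -5.02 ± 0.55 (SE), adjusted p = 2.8e-11). The br with Cht6 gate was lower at 0, 0.112 and 0.420 TP10K (log2 difference -1.52 ± 0.42 (SE), adjusted p = 0.0034). DIP-theta shares exon sequence with a long noncoding RNA on its own strand, lncRNA:CR44822, so its counts are uncertain to that extent.

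DIP-eta, its neighbour on chromosome 2L and of the same binding group, was counted mainly in 3 DN3 gates. It reached 0.360, 0.980 and 1.40 TP10K in the CG34351 gate, 0.282, 0.455 and 0.831 in br with Cht6 and 0.211, 0.421 and 0.932 in Pvf3. No library of the Pdf, AstA, CCHa1, CNMa or CrzR with ct gates exceeded 0.0982 TP10K, so these gates and the 3 higher ones did not overlap. The call in CG34351 was log2 difference 4.41 ± 0.25 (SE), adjusted p = 1.7e-22. In the CCHa1 gate 1 UMI was counted, against 50.3 times as many per total in the other gates pooled (95% counting interval 8.98 to 1990.0, adjusted p = 0.00065). DIP-iota, the third of the group, had 53 UMIs in all gates, with a median above 0 only in the Pdf gate (0.0950 TP10K), and was not tested.

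DIP-gamma, the partner of dpr11 and dpr15 to dpr17, was highest in the CNMa and Pdf gates. Levels were 0.157, 1.61 and 3.08 TP10K in CNMa and 0.329, 1.01 and 1.62 in Pdf, which overlapped. CNMa libraries spread over almost the whole range of the gene, and no gate lay wholly below them, whereas 3 gates lay below Pdf. The differences were log2 difference 3.08 ± 0.30 (SE), adjusted p = 3.2e-12 in CNMa and log2 difference 2.37 ± 0.30 (SE), adjusted p = 2.5e-09 in Pdf. The br with Cht6 gate was lower, 0, 0.112 and 0.294 TP10K with 3 of 10 libraries at 0 (log2 difference -1.47 ± 0.51 (SE), adjusted p = 0.023). That call was lost with sums of at least 5 cells, where the Achl cells held 0 UMIs of DIP-gamma (-0.52, adjusted p = 1.0), with at least 4 clock genes (-1.22, adjusted p = 0.099), and without ZT02 replicate 1 (-1.19, adjusted p = 0.065), ZT14 replicate 1 (-1.30, 0.054) or ZT22 replicate 2 (-1.41, 0.052). DIP-gamma overlaps exons of CG11828 on the opposite strand, and whether the counting used strand is not given in the sources used here.

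Other DIPs marked 1 or a few gates. DIP-delta, the partner of dpr12, had 1.57, 3.03 and 4.08 TP10K in the Pvf3 gate, wholly above every other gate, of which br with Cht6 came next with 0.388, 1.10 and 1.35 (log2 difference 3.14 ± 0.24 (SE), adjusted p = 2.4e-16). DIP-epsilon (chr2L:6377771-6411326) had 0.747, 0.974 and 1.75 TP10K in the CCHa1 gate, above all libraries of the other 7 gates, whose highest was 0.371 (log2 difference 5.10 ± 0.28 (SE), adjusted p = 9.4e-23). DIP-zeta, with the same dpr partners, was also highest there, with 0.433, 0.758 and 2.02 TP10K, and overlapped only br with Cht6 and Pvf3, at 0.102, 0.429 and 0.980 and 0, 0.131 and 0.508. It was called in CCHa1 (log2 difference 4.75 ± 0.27 (SE), adjusted p = 9.4e-23) and br with Cht6 (log2 difference 3.42 ± 0.32 (SE), adjusted p = 9.2e-14). In the AstA gate DIP-zeta gave 5 UMIs, 0, 0 and 0.0186 TP10K (log2 difference -2.97 ± 0.81 (SE), adjusted p = 0.0037), a call that was lost without ZT18 replicate 1 (-2.73, adjusted p = 1.0) or without cells over 15000 UMIs (-2.96, adjusted p = 1.0), where CrzR with ct was left with 0 UMIs. For DIP-beta, DIP-epsilon, DIP-eta, DIP-zeta and dpr20 the mean over the other gates holds at least 1 gate with 3 UMIs or fewer, and the fitted differences of these genes rest partly on such gates. DIP-lambda was counted almost only in 2 DN3 gates, 0.141, 0.439 and 1.03 TP10K in Pvf3 (108 UMIs) and 0.0442, 0.365 and 0.645 in CrzR with ct (116 UMIs), which overlapped. The other 6 gates held 5 UMIs together, with 2 gates at 0, and pooled they were 218-fold below Pvf3 and 161-fold below CrzR with ct (adjusted p = 7.6e-19 and 1e-17). DIP-kappa had 1.57, 2.35 and 2.96 TP10K in AstA, where it was called higher (log2 difference 2.47 ± 0.27 (SE), adjusted p = 1e-10). DIP-alpha, the partner of dpr6 and dpr10, had 97 UMIs in all gates, with no gate median above 0.0450 TP10K, and was not tested between gates. Its exons overlap CG2875 on its own strand and ppk8 on the opposite strand, so its counts are uncertain to that extent. DIP-zeta overlaps lncRNA:CR44483 and dpr4 overlaps asRNA:CR45056, both on the opposite strand.

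**Figure D3:**
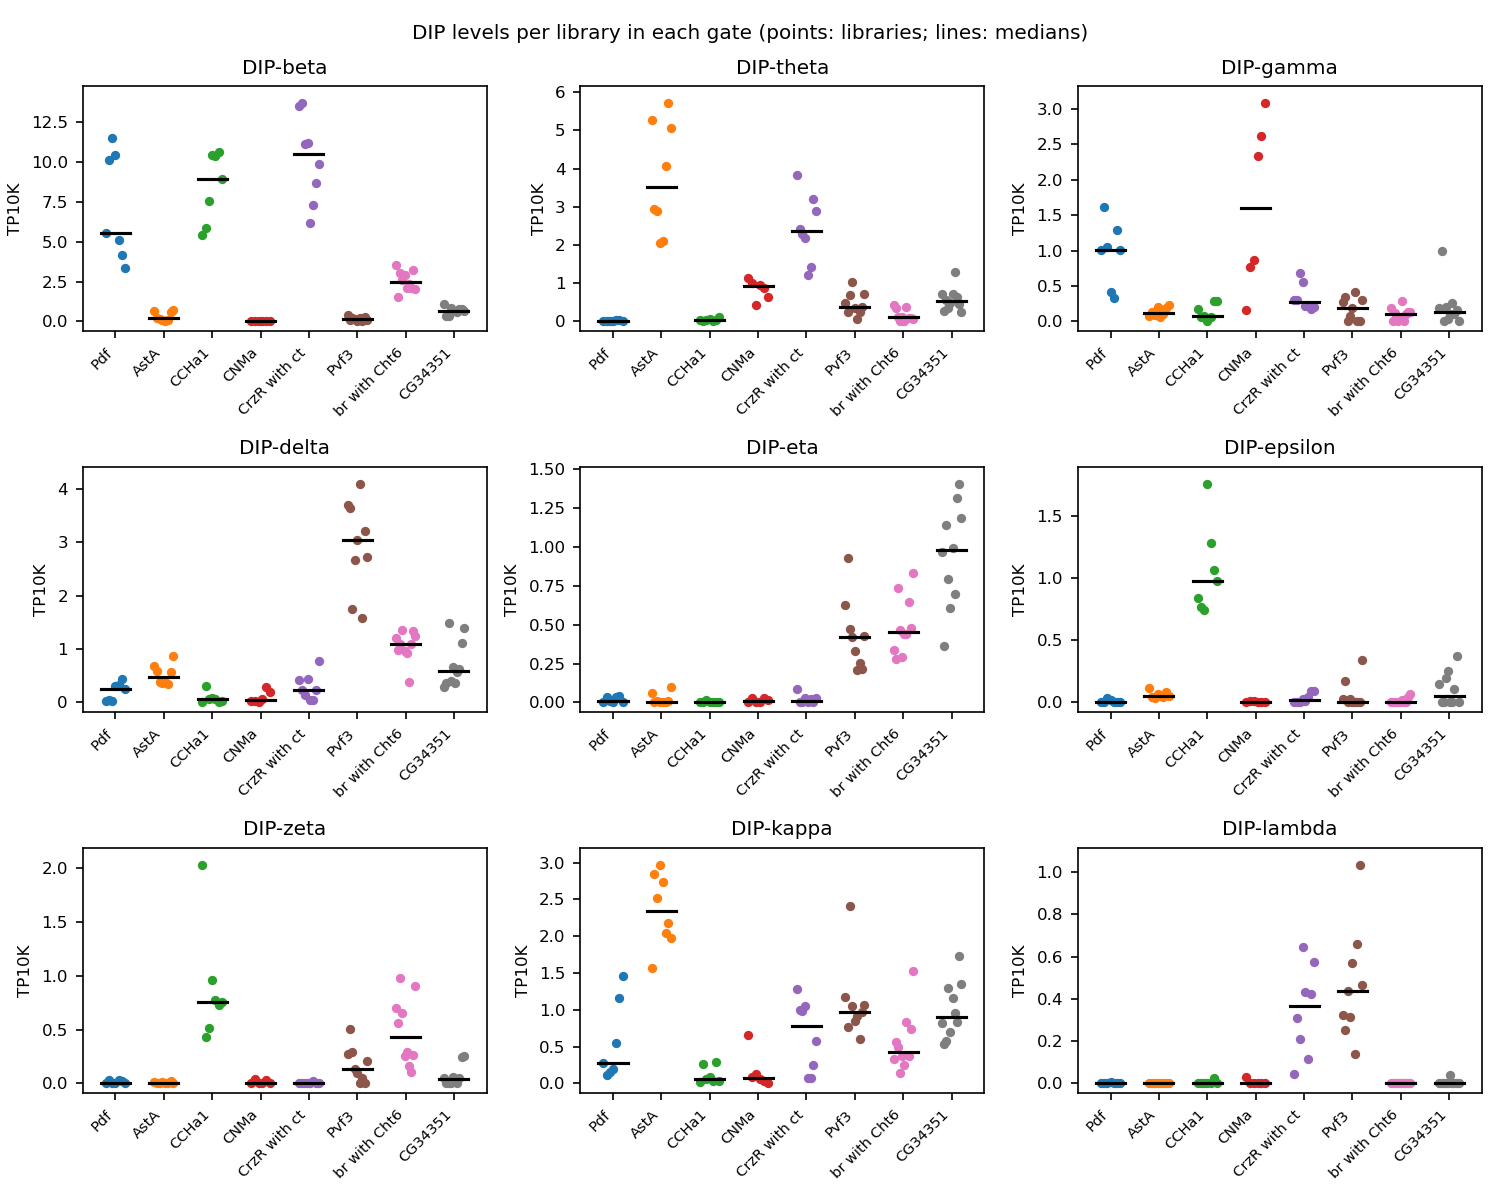
Level in TP10K (y axis, linear) of 9 DIP genes in each library (points) of the 8 gates (x axis), with the median as a line. DIP-epsilon in CCHa1 (lowest library 0.747) and DIP-delta in Pvf3 (lowest library 1.57) stood clear of all other gates, and DIP-eta was near 0 in 5 gates.

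Of the dpr genes that bind DIP-eta, DIP-theta and DIP-iota, dpr1 and dpr2 were led by the AstA gate, in which DIP-theta was also highest. dpr1, the founding member, in which loss changes the response to salt, had 3.44, 5.47 and 5.97 TP10K in AstA, wholly above 6 gates and overlapping Pdf (log2 difference 3.47 ± 0.25 (SE), adjusted p = 8.6e-17). In CrzR with ct it had 0, 0.0489 and 0.108 TP10K, with 2 of 8 libraries at 0 and 6 gates wholly above it (log2 difference -4.30 ± 0.60 (SE), adjusted p = 8.8e-08). dpr2 had 1.88, 2.20 and 2.82 TP10K in AstA (log2 difference 3.29 ± 0.20 (SE), adjusted p = 8.2e-20) and overlapped CCHa1 at 0.932, 1.77 and 2.37. The Pvf3 gate was lower for dpr2, 0, 0.0815 and 0.131 TP10K (log2 difference -2.43 ± 0.46 (SE), adjusted p = 2e-05). dpr3 medians ran from 0.0216 TP10K in Pdf to 3.74 in CCHa1. dpr5 was highest in br with Cht6, 1.48, 2.17 and 2.94 TP10K, wholly above the other 7 gates (log2 difference 3.55 ± 0.19 (SE), adjusted p = 5.1e-23), while its neighbour dpr4 had medians of 0.353 to 1.87 TP10K.

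The partners of DIP-alpha and DIP-beta divided the gates in other ways. dpr8 had 3.78, 10.9 and 18.9 TP10K in the CNMa gate, in which DIP-beta was near 0 (log2 difference 2.88 ± 0.17 (SE), adjusted p = 7.6e-20), where it lay wholly above 4 gates and overlapped 3. In AstA it had 0.130, 0.382 and 0.494 TP10K, wholly below 6 gates (log2 difference -3.22 ± 0.25 (SE), adjusted p = 9.6e-16). dpr9 had 4.20, 5.30 and 8.69 TP10K in Pdf (log2 difference 2.32 ± 0.14 (SE), adjusted p = 7.2e-20) and 0.0163, 0.0462 and 0.283 in CNMa, where 6 gates lay wholly above it (log2 difference -5.09 ± 0.32 (SE), adjusted p = 8.1e-20). Its medians in AstA (7.38) and CCHa1 (6.05) were above that in Pdf. dpr6, which also binds DIP-alpha, had 0.0333, 0.0722 and 0.156 TP10K in CCHa1 (log2 difference -3.31 ± 0.32 (SE), adjusted p = 1.8e-12) and a median of 3.40 in br with Cht6. Its neighbour dpr10 ran from 0.0666 in CCHa1 to 0.941 in AstA by medians. dpr11 medians ran from 0.423 in Pdf to 7.71 in CCHa1, dpr15 from 0.0343 in CrzR with ct to 0.412 in CCHa1, and dpr21 from 1.02 in Pdf to 4.29 in Pvf3.

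Among the partners of DIP-gamma, dpr17 (chr3R:12094876-12111420) marked the Pvf3 gate. It had 6.24, 7.17 and 8.01 TP10K there and no library of another gate exceeded 3.66 (log2 difference 4.01 ± 0.20 (SE), adjusted p = 5.9e-23). dpr16 had its lowest median in the Pdf gate with 0.00875, 0.0228 and 0.219 TP10K, where 5 gates lay wholly above (log2 difference -3.80 ± 0.46 (SE), adjusted p = 6.7e-10). CrzR with ct was close to it, with a median of 0.0395, and the highest median was in Pvf3 (2.12). In the CG34351 gate dpr16 had 0.525, 1.36 and 2.52 TP10K (log2 difference 1.49 ± 0.24 (SE), adjusted p = 1.8e-06), a call that was lost when at least 4 clock genes were required (0.40, adjusted p = 0.51). dpr16 shares exon sequence with cno on the opposite strand. dpr12, the partner of DIP-delta, had medians of 1.75 TP10K in Pdf to 6.26 in CCHa1.

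Of the partners of DIP-epsilon and DIP-zeta, dpr20 was counted mainly in 2 DN3 gates. It had 0.332, 0.930 and 1.52 TP10K in br with Cht6 (log2 difference 4.07 ± 0.22 (SE), adjusted p = 4.7e-23) and 0.380, 0.731 and 1.05 in Pvf3 (log2 difference 3.29 ± 0.25 (SE), adjusted p = 1.5e-17), which overlapped, and both lay wholly above 5 gates. In CrzR with ct 1 UMI of dpr20 was counted, against 76.5 times as many per total in the other gates pooled (95% counting interval 13.7 to 3027, adjusted p = 1.4e-05). That call was lost with at least 2 clock genes per cell (-1.56, adjusted p = 0.063) and with sums of at least 5 cells, where the Achl cells held 0 UMIs (-3.49, adjusted p = 1.0). dpr18 had 0.247, 0.550 and 1.14 TP10K in CG34351 (log2 difference 2.24 ± 0.28 (SE), adjusted p = 9.3e-10), overlapping AstA at 0.296, 0.418 and 0.541. dpr13 medians ran from 0.389 TP10K in Pdf to 13.1 in AstA, and dpr14 from 0.491 in Pdf to 2.64 in AstA. dpr19 was 2.23, 2.67 and 3.30 TP10K in Pvf3, which did not overlap AstA, the next gate by median, but overlapped 2 others (log2 difference 0.63, under 2-fold), and its lowest median was 0.840 in Pdf. dpr7, which binds DIP-kappa, ran from 1.18 in CNMa to 4.08 in Pvf3.

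Since the gate for Achl alone was too small, another was added after the data were seen. It took cells with at least 15 TP10K of br, at least 1 Achl UMI and fewer than 2 Cht6 UMIs. It held 70 cells in 6 libraries with at least 5 cells. Its levels were 0.920, 2.15 and 3.11 TP10K for DIP-zeta, 0.613, 3.48 and 4.67 for DIP-kappa and 2.15, 4.24 and 5.60 for dpr5. DIP-zeta, DIP-kappa and dpr5 had higher medians there than in any of the 8 gates, and DIP-beta was at 0, 0.303 and 1.53. The sums held 32618 to 134629 UMIs, the smallest of any gate, and the gate itself was not tested against the others.

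The DN3 comparison set the mean of the 4 DN3 gates (CrzR with ct, Pvf3, br with Cht6 and CG34351) against the mean of the Pdf, AstA, CCHa1 and CNMa gates. Of 30 members 7 were higher and 2 lower in the DN3 gates (3.68% and 4.41% of all genes), a count that shares its libraries with the comparisons above. The p-values measure the spread between library sums within gates, not the spread between cell types. A call can therefore rest on 1 gate and does not show a trait of DN3 neurons as a class. DIP-eta had lowest, median and highest levels of 0, 0.441 and 1.40 TP10K in 37 sums of DN3 gates and 0, 0 and 0.0982 in 28 sums of the others (log2 difference 4.04 ± 0.46 (SE), adjusted p = 3.1e-11). As above, CrzR with ct was not among the gates with more DIP-eta. DIP-delta ran 0.0449, 0.986 and 4.08 TP10K against 0, 0.224 and 0.870 (log2 difference 2.30 ± 0.25 (SE), adjusted p = 3.8e-11). For dpr5 the levels were 0.0299, 0.657 and 2.94 TP10K against 0, 0.0692 and 0.561 (log2 difference 2.11 ± 0.21 (SE), adjusted p = 1.3e-12). dpr6 had 0, 1.73 and 5.36 TP10K against 0.0312, 0.632 and 1.98 (log2 difference 1.33 ± 0.16 (SE), adjusted p = 5.8e-10), and its difference fell to 0.95 when cells over 15000 UMIs were left out, under 2-fold. In each of these 4 the groups overlapped. The lower members were dpr1, 0, 0.509 and 1.95 TP10K against 0.0408, 1.05 and 6.30 (log2 difference -1.85 ± 0.28 (SE), adjusted p = 2.9e-07), and DIP-gamma, 0, 0.173 and 0.989 against 0, 0.262 and 3.08 (log2 difference -1.45 ± 0.31 (SE), adjusted p = 0.00011). By medians dpr1 was nevertheless higher in CG34351 (1.08 TP10K) than in CCHa1 (0.737) or CNMa (0.270). The remaining higher members were dpr4 (log2 difference 1.01), DIP-theta (1.24) and dpr17 (1.32), whose highest DN3 medians were in br with Cht6, CrzR with ct and Pvf3. For DIP-theta the AstA median (3.51 TP10K) exceeded that of every DN3 gate, and br with Cht6 was at 0.112. The dpr17 median was 7.17 in Pvf3 and at most 0.948 in the other DN3 gates. With library totals in place of TMM factors 11 members were higher and 2 lower, and the median of all genes moved by 0.21. With the added gate of Achl and br 12 members were called.

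The drivers also sorted neurons without clock transcripts, and all gated clock cells together were compared with the 5763 cells that had UMIs of none of the 5 clock genes, library by library. Of 31 members tested 3 were higher and 4 lower in gated clock cells, against 5.90% and 10.6% of 7307 genes, so members were called about as often as genes at large. DIP-beta had 1.40, 3.59 and 4.49 TP10K in gated clock cells and 0.229, 0.469 and 1.34 in the others, higher in 10 of 10 libraries without overlap (log2 difference 2.64 ± 0.32 (SE), adjusted p = 4.1e-05). That holds for the gated cells alone. Over all 10015 clock cells, of which 6559 were in no gate, DIP-beta ran from 0.684 to 1.91 TP10K and overlapped the others. In ZT02 replicate 1 it was lower there, 0.935 against 1.34. In contrast, dpr13 over all clock cells stayed clear of the others at 5.64 to 10.3. dpr13 had 4.64, 6.34 and 8.20 against 1.47, 2.29 and 4.05 TP10K, again in 10 of 10 libraries without overlap (log2 difference 1.59 ± 0.16 (SE), adjusted p = 3.4e-06). dpr11 had 1.78, 3.06 and 3.72 against 1.02, 1.48 and 2.40, higher in 10 of 10 libraries but with overlap of the groups (log2 difference 1.12 ± 0.15 (SE), adjusted p = 4.8e-05), and it fell to 0.94 with at least 2 clock genes per cell and 0.96 without cells over 15000 UMIs. Lower members were all of low level. dpr18 had 0.177, 0.222 and 0.362 TP10K against 0.297, 0.765 and 1.41 and was lower in 10 of 10 libraries (log2 difference -1.54 ± 0.15 (SE), adjusted p = 1.9e-06). dpr20 had 0.169, 0.191 and 0.302 against 0.276, 0.497 and 0.878, lower in 9 of 10 (log2 difference -1.11 ± 0.19 (SE), adjusted p = 0.0003), and without cells over 15000 UMIs its difference was under 2-fold (-0.77). DIP-alpha had 0.00738, 0.0307 and 0.0567 against 0.0309, 0.103 and 0.534, lower in 9 of 10 (log2 difference -1.86 ± 0.46 (SE), adjusted p = 0.0045), a call lost without cells over 15000 UMIs (-1.18, adjusted p = 0.058). DIP-lambda had 0.0208, 0.0706 and 0.119 against 0.0309, 0.121 and 0.517, lower in 8 of 10 (log2 difference -1.20 ± 0.44 (SE), adjusted p = 0.040). The last call was lost without cells over 15000 UMIs (-1.01, adjusted p = 0.073), without a filter on low values (-1.14, 0.069), with gate thresholds 0.5 times as high (-1.17, 0.061) and with cells of several gates given to the first (-1.10, 0.053). It was also lost without any 1 of 8 libraries, with adjusted p of 0.053 to 0.090 and log2 differences of -1.28 to -0.85. These libraries were ZT02 replicates 1 and 2, ZT06 replicates 1 and 2, ZT10 replicate 1, ZT14 replicates 1 and 2 and ZT18 replicate 1. Cells without clock genes had a median of 2796 UMIs, and 41.6% of them came from ZT02 replicate 2. Their glia markers summed to 0.0565 to 1.07 TP10K per library.

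The rhythm comparison asked which members followed a 24 h cosine over ZT within a gate. The swing is the fitted log2 difference from trough to peak, and a call needed an adjusted p under 0.05 over all genes tested in the gate and a swing of at least 1. Each gate was fitted alone with 6 to 10 libraries, and 2 to 5 of its time points had 1 library. The core clock genes served as a check, though they also selected the cells: tim, vri and Clk were each called in 6 of 8 gates, cwo in 5 and per in 4, with called tim peaks at 14.5 to 16.6 h and called Clk peaks at 0.544 to 3.85 h. In CNMa, tim, vri and per were not called (edgeR adjusted p = 0.12, 0.13 and 0.30), so its member rhythms lack part of this check. In Pvf3 no clock gene was called, and tim had a swing of 0.98 with a peak at 20.3 h (edgeR adjusted p = 0.0004). Clk, cwo and per were not called in br with Cht6, per not in CCHa1 and cwo not in Pdf. Members called were 5 of 16 in Pdf (13.0% of all genes), 6 of 24 in AstA (5.30%), 7 of 20 in CCHa1 (8.29%), 5 of 17 in CNMa (8.81%) and 7 of 18 in CrzR with ct (9.03%). In br with Cht6 2 of 23 were called (1.57%). In Pvf3 0 of 21 were called (0.315%), with 6 at an unadjusted p under 0.05 and 2 with the date in the sample label as a block, and in CG34351 0 of 20 (1.58%), with 3 and 1. The members with the lowest p in these gates were not called and are not described as rhythmic. Leaving out ZT14 replicate 2 lowered the 32 calls to 20. Without cells over 15000 UMIs there were 19. Libraries with the same label date had residuals that correlated with a median of 0.240, against -0.163 for other pairs, so a loss with that date as a block is given beside the call. Which step of the work the date refers to was not taken from the labels. Wherever a call was lost, the swing and the adjusted p under that setting stand in brackets after it.

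In the Pdf gate, dpr1 ran from 0.236 TP10K at ZT10 through a median of 1.14 to 6.30 at ZT22 (log2 swing 5.23, peak 20.3 h, adjusted p = 5.1e-07). DIP-beta there ran from 3.36 TP10K at ZT22 through a median of 5.51 to 11.5 at ZT10 (log2 swing 1.58, peak 9.69 h, adjusted p = 0.0028). DIP-kappa, low in these cells, ran from 0.116 TP10K at ZT06 through a median of 0.274 to 1.46 at ZT22 (log2 swing 3.78, peak 21.1 h, adjusted p = 0.00049). dpr1 and DIP-kappa were highest in the libraries of ZT18 and ZT22 and DIP-beta in those of ZT06 to ZT14. dpr15 ran from 0 TP10K at ZT02 through a median of 0.0875 to 1.71 at ZT22 (log2 swing 7.24, peak 20.1 h, adjusted p = 0.031), with 1 library at 0. It did not hold without ZT06 replicate 2 (7.29, 0.073), ZT14 replicate 2 (6.70, 0.10), ZT22 replicate 1 (6.64, 0.087), ZT22 replicate 2 (7.08, 0.099) or a filter on low values (7.10, 0.20), nor with DESeq2 (6.27, 0.099). DIP-gamma, which binds dpr15, ran from 0.329 TP10K at ZT18 through a median of 1.01 to 1.62 at ZT06 (log2 swing 1.97, peak 3.59 h, adjusted p = 0.033). The call did not pass without ZT06 replicate 2 (1.93, 0.11), ZT14 replicate 2 (1.52, 0.24), ZT18 replicate 1 (1.74, 0.11), ZT22 replicate 2 (2.03, 0.064), cells over 15000 UMIs (1.81, 0.15) or TMM factors (1.87, 0.056), nor with at least 4 clock genes per cell (1.62, 0.17).

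In the AstA gate, DIP-theta ran from 2.06 TP10K at ZT10 through a median of 3.51 to 5.70 at ZT22 (log2 swing 1.58, peak 23.4 h, adjusted p = 1.3e-06). DIP-beta was low there and ran from 0.0250 TP10K at ZT14 through a median of 0.189 to 0.730 at ZT22 (log2 swing 4.65, peak 0.594 h, adjusted p = 6.3e-08). dpr10, a partner of DIP-beta, ran from 0.292 TP10K at ZT10 through a median of 0.941 to 1.2 at ZT02 (log2 swing 1.62, peak 0.571 h, adjusted p = 0.0042). A call was no longer made without cells over 15000 UMIs (1.52, 0.27). The fitted peaks of these 3 lay near lights on, as did that of DIP-delta, which ran from 0.350 TP10K at ZT18 through a median of 0.479 to 0.870 at ZT22 (log2 swing 1.15, peak 0.676 h, adjusted p = 0.034). It failed the threshold without ZT02 replicate 2 (1.17, 0.056), ZT10 replicate 1 (1.18, 0.074), ZT14 replicate 2 (1.37, 0.052), ZT18 replicate 1 (1.08, 0.054) or ZT22 replicate 2 (0.97, 0.15) or with the label date as a block (1.11, 0.081) or DESeq2 (1.18, 0.085). Of the DIP-gamma partners, dpr16 ran from 0.317 TP10K at ZT02 through a median of 0.611 to 1.26 at ZT14 (log2 swing 1.63, peak 15 h, adjusted p = 0.00072). No call was made without ZT14 replicate 2 (1.32, 0.055). Its relative dpr17 ran from 0.253 TP10K at ZT22 through a median of 0.375 to 0.615 at ZT10 (log2 swing 1.08, peak 9.87 h, adjusted p = 0.025). The threshold was missed without ZT10 replicate 1 (0.93, 0.21), ZT18 replicate 1 (1.01, 0.064), ZT22 replicate 1 (1.15, 0.076), ZT22 replicate 2 (1.05, 0.095) or cells over 15000 UMIs (1.19, 0.073) or with DESeq2 (1.06, 0.14).

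In the CCHa1 gate, dpr11 ran from 2.59 TP10K at ZT02 through a median of 7.71 to 16.2 at ZT18 (log2 swing 2.37, peak 15.4 h, adjusted p = 2.1e-06). dpr9 ran from 2.16 TP10K at ZT10 through a median of 6.05 to 8.62 at ZT22 (log2 swing 1.98, peak 22.4 h, adjusted p = 2.8e-06). Their partner DIP-beta ran from 5.41 TP10K at ZT02 through a median of 8.91 to 10.6 at ZT22 (log2 swing 1.05, peak 17.4 h, adjusted p = 0.011). This did not pass without ZT02 replicate 2 (0.87, 0.029), ZT06 replicate 2 (1.11, 0.11) or cells over 15000 UMIs (1.09, 0.070), nor with at least 2 clock genes per cell (0.93, 0.013), sums of at least 5 cells (0.70, 0.40) or gate thresholds 0.5 times as high (0.90, 0.019). dpr11 and DIP-beta were both lowest at ZT02, whereas dpr9 was at 2.16 to 3.51 TP10K from ZT06 to ZT14 and at 6.05 to 8.62 at ZT18, ZT22 and ZT02. dpr15 ran from 0.0333 TP10K at ZT06 through a median of 0.412 to 0.779 at ZT22 (log2 swing 3.52, peak 21.8 h, adjusted p = 8.1e-05). dpr1 ran from 0.266 TP10K at ZT06 through a median of 0.737 to 1.3 at ZT22 (log2 swing 1.45, peak 19.6 h, adjusted p = 0.038). It did not hold without ZT06 replicate 2 (1.08, 0.32), ZT14 replicate 2 (1.44, 0.066), ZT22 replicate 1 (1.41, 0.16), ZT22 replicate 2 (1.27, 0.16), cells over 15000 UMIs (1.26, 0.38) or TMM factors (1.42, 0.055), nor with at least 4 clock genes per cell (1.40, 0.066), DESeq2 (1.5, 0.12) or gate thresholds 2 times as high (1.42, 0.052). dpr2, of the same binding group, ran from 0.932 TP10K at ZT06 through a median of 1.77 to 2.37 at ZT18 (log2 swing 1.05, peak 17.5 h, adjusted p = 0.040). The call did not pass without ZT06 replicate 2 (0.80, 0.44), ZT18 replicate 1 (1.0, 0.23), ZT22 replicate 1 (1.04, 0.11), ZT22 replicate 2 (1.08, 0.055), cells over 15000 UMIs (1.0, 0.48) or a filter on low values (1.03, 0.054), nor with at least 4 clock genes per cell (1.04, 0.057), the label date as a block (0.93, 0.19), DESeq2 (1.05, 0.15), cells of several gates given to the first (1.0, 0.053), gate thresholds 0.5 times as high (0.99, 0.037) or gate thresholds 2 times as high (1.01, 0.062). For dpr13 the range was 0.353 TP10K at ZT02 through a median of 1.09 to 1.65 at ZT14 (log2 swing 1.51, peak 14.3 h, adjusted p = 0.014). A call was no longer made without ZT02 replicate 2 (0.99, 0.18), ZT14 replicate 2 (1.64, 0.11) or cells over 15000 UMIs (1.75, 0.48), nor with DESeq2 (1.5, 0.072).

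The CNMa gate had no library at ZT06 and 6 in all, and a fit with the label date could not be made. dpr8, the member that led this gate, ran from 3.78 TP10K at ZT02 through a median of 10.9 to 18.9 at ZT14 (log2 swing 2.20, peak 16.1 h, adjusted p = 0.0051). It failed the threshold without ZT14 replicate 2 (2.20, 0.084) or cells over 15000 UMIs (1.08, 0.24) or with gate thresholds 2 times as high (2.78, 0.14). dpr13 ran from 1.82 TP10K at ZT22 through a median of 4.59 to 8.11 at ZT10 (log2 swing 1.94, peak 9.29 h, adjusted p = 0.019). No call was made without ZT14 replicate 2 (1.82, 0.079), ZT18 replicate 1 (2.21, 0.052), ZT22 replicate 1 (1.77, 0.16) or ZT22 replicate 2 (1.68, 0.055). Its highest library gave 38.0% of its UMIs in the gate. dpr1 ran from 0.0408 TP10K at ZT10 through a median of 0.270 to 0.374 at ZT18 (log2 swing 3.78, peak 18.6 h, adjusted p = 0.022). The threshold was missed without ZT10 replicate 1 (2.76, 0.29), ZT18 replicate 1 (4.42, 0.085), ZT22 replicate 1 (3.78, 0.078) or ZT22 replicate 2 (3.76, 0.14) or with gate thresholds 2 times as high (3.42, 0.068). dpr15 ran from 0.0714 TP10K at ZT10 through a median of 0.331 to 0.663 at ZT22 (log2 swing 3.52, peak 19.3 h, adjusted p = 0.012). This did not pass without ZT10 replicate 1 (3.31, 0.12), ZT22 replicate 1 (3.36, 0.064) or cells over 15000 UMIs (3.52, 0.075), nor with gate thresholds 2 times as high (3.81, 0.068). For dpr4 the range was 0.459 TP10K at ZT10 through a median of 0.770 to 1.14 at ZT22 (log2 swing 1.55, peak 20.2 h, adjusted p = 0.041). It did not hold without ZT10 replicate 1 (2.08, 0.066), ZT14 replicate 2 (1.59, 0.085), ZT18 replicate 1 (1.65, 0.11), ZT22 replicate 1 (1.57, 0.14), ZT22 replicate 2 (1.38, 0.23) or TMM factors (1.44, 0.064), nor with DESeq2 (1.58, 0.093) or gate thresholds 2 times as high (1.85, 0.15).

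In CrzR with ct, DIP-theta ran from 1.23 TP10K at ZT14 through a median of 2.36 to 3.84 at ZT02 (log2 swing 1.54, peak 1.55 h, adjusted p = 0.00025). Among its partners, dpr3 ran from 1.05 TP10K at ZT22 through a median of 2.44 to 3.73 at ZT14 (log2 swing 1.47, peak 11.2 h, adjusted p = 0.00044). dpr2 ran from 0.268 TP10K at ZT06 through a median of 0.678 to 1.63 at ZT14 (log2 swing 1.54, peak 14.4 h, adjusted p = 0.014). The call did not pass without ZT14 replicate 2 (0.82, 0.58), nor with DESeq2 (1.48, 0.067). DIP-beta ran from 6.17 TP10K at ZT14 through a median of 10.5 to 13.6 at ZT06 (log2 swing 1.03, peak 3.70 h, adjusted p = 0.0022). A call was no longer made without ZT02 replicate 2 (0.99, 0.0054), ZT06 replicate 1 (0.99, 0.022) or ZT14 replicate 2 (0.81, 0.022), nor with at least 2 clock genes per cell (0.80, 0.049) or at least 4 clock genes per cell (0.99, 0.0044). Its partner dpr11 ran from 0.988 TP10K at ZT14 through a median of 3.07 to 5.96 at ZT02 (log2 swing 2.26, peak 4.02 h, adjusted p = 5.7e-06). Both were lowest in the same library, at ZT14. dpr9 ran from 0.0769 TP10K at ZT06 through a median of 0.355 to 0.572 at ZT22 (log2 swing 1.86, peak 19.7 h, adjusted p = 0.021). It failed the threshold without ZT06 replicate 1 (1.60, 0.10), ZT06 replicate 2 (1.66, 0.11) or ZT22 replicate 2 (1.71, 0.088) or with at least 2 clock genes per cell (1.5, 0.080) or DESeq2 (1.98, 0.079). For DIP-kappa the range was 0.0698 TP10K at ZT18 through a median of 0.777 to 1.28 at ZT02 (log2 swing 3.48, peak 4.65 h, adjusted p = 0.019). No call was made without ZT02 replicate 2 (3.19, 0.062), ZT18 replicate 1 (3.17, 0.083) or ZT22 replicate 1 (3.31, 0.056), nor with the label date as a block (3.87, 0.066). In br with Cht6, dpr16 ran from 0.952 TP10K at ZT02 through a median of 1.27 to 2.33 at ZT14 (log2 swing 1.31, peak 10.8 h, adjusted p = 0.011). The threshold was missed without ZT14 replicate 2 (1.25, 0.058) or with at least 4 clock genes per cell (1.17, 0.18). dpr6 in that gate ran from 1.73 TP10K at ZT22 through a median of 3.40 to 5.36 at ZT10 (log2 swing 1.22, peak 7.38 h, adjusted p = 0.016). This did not pass without ZT10 replicate 1 (1.06, 0.13), ZT18 replicate 1 (1.12, 0.14) or ZT22 replicate 2 (1.03, 0.13), nor with at least 4 clock genes per cell (1.07, 0.43).

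Over all 10015 clock cells summed by library, whose mix of types differs between libraries, 2 of 31 members were called (1.41% of all genes). DIP-theta ran from 1.03 TP10K at ZT14 through a median of 2.12 to 2.75 at ZT22 (log2 swing 1.05, peak 0.229 h, adjusted p = 0.045). It did not hold without ZT02 replicate 2 (1.11, 0.067), ZT06 replicate 1 (1.05, 0.083), ZT06 replicate 2 (1.04, 0.092), ZT10 replicate 1 (1.15, 0.087), ZT14 replicate 1 (0.82, 0.032), ZT14 replicate 2 (1.13, 0.11), ZT18 replicate 1 (1.07, 0.083), ZT22 replicate 1 (1.03, 0.11), ZT22 replicate 2 (1.0, 0.12), cells over 15000 UMIs (0.98, 0.36) or TMM factors (0.93, 0.066), nor with at least 2 clock genes per cell (0.88, 0.079). dpr15 ran from 0.128 TP10K at ZT06 through a median of 0.213 to 0.333 at ZT22 (log2 swing 1.22, peak 21.1 h, adjusted p = 0.016). The call did not pass without ZT10 replicate 1 (1.28, 0.051), ZT22 replicate 1 (1.17, 0.068), ZT22 replicate 2 (1.19, 0.061) or cells over 15000 UMIs (0.72, 0.21).

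**Figure D4:**
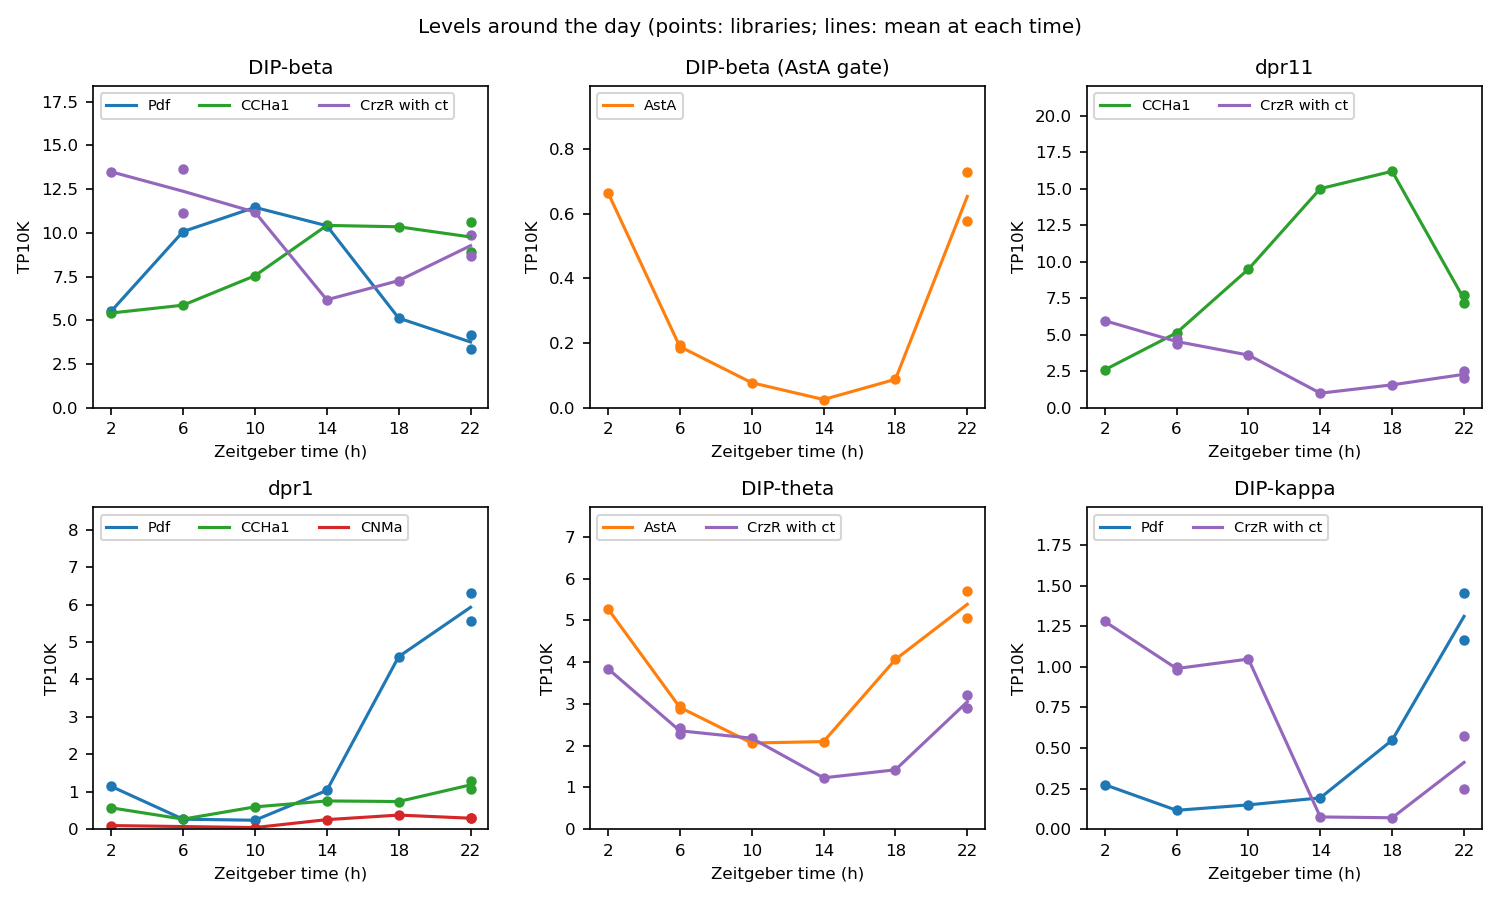
Level in TP10K (y axis) by Zeitgeber time in hours (x axis) for 5 members in gates where they were called rhythmic, with a point for each library, a line through the mean at each time and a colour for each gate. DIP-beta peaks at a fitted 9.69 h in the Pdf gate and 17.4 h in CCHa1.

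Where a member was called rhythmic in more than 1 gate, the difference in its 24 h cosine and sine between gates was tested, a test added after the data were seen. There were 19 such tests for 10 members in 9 pairs of gates, and 9 passed an adjusted p of 0.05 over all genes. DIP-beta passed in all 6 of its pairs. Its fitted peaks were 9.69 h in Pdf, 0.594 h in AstA, 17.4 h in CCHa1 and 3.70 h in CrzR with ct. Adjusted p from edgeR was 1.8e-15 for Pdf and AstA (10.0% of all genes passed), 1.5e-07 for Pdf and CCHa1 (5.89%) and 6.3e-06 for Pdf and CrzR with ct (10.9%). It was 4.3e-11 for AstA and CCHa1 (1.74%), 2.2e-08 for AstA and CrzR with ct (3.29%) and 3.1e-05 for CCHa1 and CrzR with ct (2.52%). The last was lost with at least 2 clock genes per cell (adjusted p = 0.091). dpr11, a partner of DIP-beta, peaked at 15.4 h in CCHa1 and 4.02 h in CrzR with ct (adjusted p = 1.7e-05). DIP-kappa peaked at 21.1 h in Pdf and 4.65 h in CrzR with ct (adjusted p = 0.00049). dpr1 differed between Pdf and CCHa1 in size, with swings of 5.23 and 1.45 and peaks 0.781 h apart (adjusted p = 0.0035), which was lost without ZT10 replicate 1 (adjusted p = 0.15). No member passed between Pdf and CNMa (9.37%), CCHa1 and CNMa (4.50%) or AstA and br with Cht6 (1.06%). The pairs share gates and are not independent.

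The bulk libraries gave a separate measure of 28 members at ZT02. Values are the authors' normalised signal, set on log2(value + 1), and each driver was compared with the mean of the other 2 by limma over 8334 genes. The values returned whole reads at the tolerance of 0.01, with 164631 to 505579 reads per library. The labels do not say that A and B came from separate flies, so p-values measure the spread between these samples. Fewer cells of a type and less RNA per cell cannot be told apart in bulk. After a lost call, brackets hold the log2 difference and adjusted p under that setting. R77H08 had 4 members higher and 2 lower (0.588% and 1.98% of all genes). split-0367 had 1 higher and 2 lower (0.624% and 2.41%), and VT055068 had 7 higher and 4 lower (7.50% and 1.20%). edgeR on the recovered reads called 5, 7 and 12 members. The 3 comparisons share all libraries. By correlation of expression, the paper matched the APDN3 neurons of split-0367 to a DN3 cluster that is also among those it matched to R77H08. These 2 drivers may therefore label some of the same neurons.

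In R77H08, dpr16 was 74.0 and 59.7 in replicates A and B against 3.26 to 37.3 in the other 4 libraries (log2 difference 2.34 ± 0.37 (SE), adjusted p = 0.0018). dpr13 was 138 and 273 in replicates A and B against 30.5 to 122 in the other 4 libraries (log2 difference 1.64 ± 0.27 (SE), adjusted p = 0.0030). Both stood clear of the other drivers. DIP-zeta was 15.6 and 125 in replicates A and B against 0 to 5.95 in the other 4 libraries (log2 difference 3.90 ± 0.92 (SE), adjusted p = 0.037), with replicates far apart. A call was no longer made without R77H08 replicate B (2.44, 0.14), VT055068 replicate B (3.21, 0.089), split-0367 replicate A (3.42, 0.15) or split-0367 replicate B (4.39, 0.061), nor with edgeR on the recovered reads (4.41, 0.10), a pseudocount of 0.1 (5.04, 0.23) or a pseudocount of 10 (2.19, 0.12). DIP-delta was 25.3 and 100.3 in replicates A and B against 4.08 to 28.9 in the other 4 libraries (log2 difference 2.06 ± 0.49 (SE), adjusted p = 0.029), and the groups overlapped. It failed the threshold without R77H08 replicate B (1.09, 0.25), VT055068 replicate A (1.87, 0.21), VT055068 replicate B (2.26, 0.070), split-0367 replicate A (1.86, 0.18) or split-0367 replicate B (2.26, 0.084) or with a pseudocount of 0.1 (2.17, 0.16). dpr5 was lower, 11.7 and 4.51 in replicates A and B against 20.1 to 43.2 in the other 4 libraries (log2 difference -1.99 ± 0.40 (SE), adjusted p = 0.011). No call was made without VT055068 replicate A (-2.11, 0.057), VT055068 replicate B (-1.86, 0.069), split-0367 replicate A (-1.98, 0.097) or split-0367 replicate B (-1.99, 0.088), nor with a pseudocount of 0.1 (-2.13, 0.071). DIP-eta was listed at 0 in both R77H08 libraries and at 3.26 to 26.4 in the others (adjusted p = 0.010). The threshold was missed without VT055068 replicate B (-2.97, 0.076), split-0367 replicate A (-3.38, 0.052) or split-0367 replicate B (-3.14, 0.082) or with a pseudocount of 10 (-0.98, 0.042). In split-0367, dpr5 was higher, 43.2 and 42.3 in replicates A and B against 4.51 to 28.9 in the other 4 libraries (log2 difference 1.59 ± 0.40 (SE), adjusted p = 0.039). This did not pass without VT055068 replicate A (1.47, 0.20), VT055068 replicate B (1.72, 0.081), split-0367 replicate A (1.58, 0.46) or split-0367 replicate B (1.61, 0.46), nor with a pseudocount of 0.1 (1.68, 0.14). dpr16 was 3.26 and 5.90 in replicates A and B against 26.8 to 74.0 in the other 4 libraries (log2 difference -3.11 ± 0.37 (SE), adjusted p = 0.00014). DIP-delta was 4.08 and 7.86 in replicates A and B against 16.4 to 100.3 in the other 4 libraries (log2 difference -2.35 ± 0.49 (SE), adjusted p = 0.013). It did not hold without VT055068 replicate A (-2.55, 0.053), VT055068 replicate B (-2.16, 0.072), split-0367 replicate A (-1.95, 0.35) or split-0367 replicate B (-2.76, 0.12), nor with a pseudocount of 0.1 (-2.53, 0.095).

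In VT055068, dpr1 was 37.9 and 58.9 in replicates A and B against 0 to 5.84 in the other 4 libraries (log2 difference 3.81 ± 0.69 (SE), adjusted p = 0.0012). The call did not pass without VT055068 replicate A (4.12, 0.058) or VT055068 replicate B (3.50, 0.069), nor with a pseudocount of 0.1 (4.83, 0.084). dpr17, the partner of DIP-gamma, was 52.8 and 79.3 in replicates A and B against 5.71 to 40.6 in the other 4 libraries (log2 difference 2.53 ± 0.55 (SE), adjusted p = 0.0067). A call was no longer made without VT055068 replicate A (2.82, 0.095) or VT055068 replicate B (2.24, 0.14), nor with a pseudocount of 0.1 (2.66, 0.053). dpr18 was 19.3 and 37.3 in replicates A and B against 3.38 to 9.83 in the other 4 libraries (log2 difference 2.25 ± 0.54 (SE), adjusted p = 0.011). It failed the threshold without VT055068 replicate A (2.71, 0.094), VT055068 replicate B (1.79, 0.28) or split-0367 replicate A (1.98, 0.061). These 3 did not overlap the other drivers. dpr6 was 26.0 and 19.2 in replicates A and B against 1.95 to 7.89 in the other 4 libraries (log2 difference 2.53 ± 0.61 (SE), adjusted p = 0.012). No call was made without VT055068 replicate A (2.32, 0.29), VT055068 replicate B (2.74, 0.10) or split-0367 replicate B (2.48, 0.050), nor with a pseudocount of 0.1 (2.88, 0.052). dpr9 was 32 and 40.9 in replicates A and B against 3.26 to 20.3 in the other 4 libraries (log2 difference 2.15 ± 0.51 (SE), adjusted p = 0.010). The threshold was missed without VT055068 replicate A (2.32, 0.17), VT055068 replicate B (1.98, 0.19) or split-0367 replicate A (1.93, 0.058) or with a pseudocount of 0.1 (2.31, 0.054). dpr20 was 9.67 and 16.8 (13 and 14 reads) and was listed at 0 in all libraries of the other drivers (adjusted p = 0.00092). Without VT055068 replicate A, or without replicate B, dpr20 did not pass the filter on low values and was not tested. DIP-eta was also higher, 11.2 and 26.4 in replicates A and B against 0 to 4.91 in the other 4 libraries (log2 difference 3.03 ± 0.66 (SE), adjusted p = 0.0053). This did not pass without VT055068 replicate A (3.61, 0.055) or VT055068 replicate B (2.44, 0.17).

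The lower members of VT055068 included the partners dpr11 and DIP-beta. dpr13 was 30.5 and 32.5 in replicates A and B against 118 to 273 in the other 4 libraries (log2 difference -2.24 ± 0.27 (SE), adjusted p = 2.4e-05). dpr3 was 39.4 and 38.5 in replicates A and B against 65.8 to 136 in the other 4 libraries (log2 difference -1.12 ± 0.27 (SE), adjusted p = 0.013). It did not hold without R77H08 replicate A (-0.93, 0.022), VT055068 replicate A (-1.14, 0.16), VT055068 replicate B (-1.10, 0.10), split-0367 replicate A (-1.07, 0.082) or split-0367 replicate B (-1.18, 0.052), nor with a pseudocount of 10 (-0.97, 0.010). dpr11 was 36.4 and 52.9 in replicates A and B against 56.5 to 129.6 in the other 4 libraries (log2 difference -1.06 ± 0.31 (SE), adjusted p = 0.038). The call did not pass without R77H08 replicate B (-0.77, 0.060), VT055068 replicate A (-0.80, 0.48), VT055068 replicate B (-1.32, 0.077), split-0367 replicate A (-1.05, 0.16) or split-0367 replicate B (-1.08, 0.15), nor with a pseudocount of 0.1 (-1.08, 0.12) or a pseudocount of 10 (-0.93, 0.029). DIP-beta was 49.8 and 169 in replicates A and B against 160.0 to 353 in the other 4 libraries (log2 difference -1.47 ± 0.37 (SE), adjusted p = 0.021), and its replicates overlapped the other drivers. A call was no longer made without R77H08 replicate A (-1.35, 0.098), VT055068 replicate A (-0.60, 0.49), split-0367 replicate A (-1.46, 0.072) or split-0367 replicate B (-1.48, 0.071), nor with a pseudocount of 0.1 (-1.48, 0.079).

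**Figure D5:**
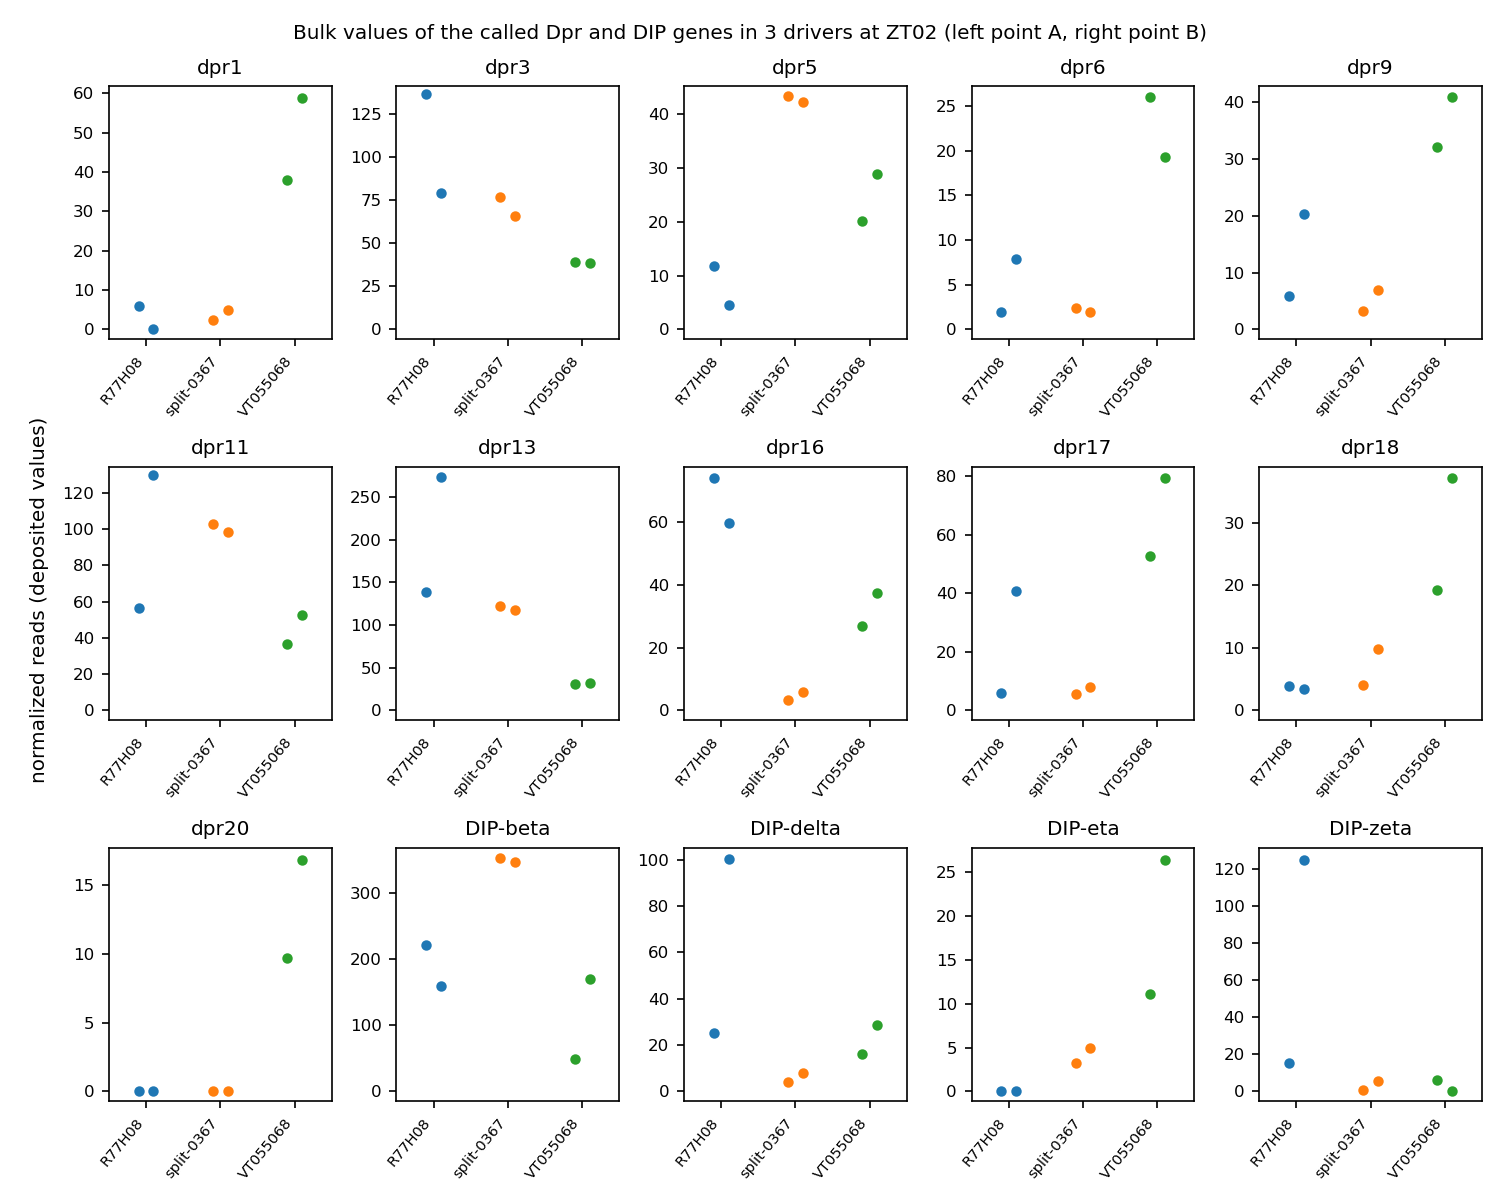
Normalised signal (y axis) of the members called in a bulk comparison, with a point for each replicate of the 3 drivers (x axis). dpr13 was 138 and 273 in R77H08 and 30.5 and 32.5 in VT055068.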

How the data were processed

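Single-cell libraries and bulk libraries were analysed from the deposited tables. Single-cell values are UMI counts per gene and cell that the authors made with Cell Ranger on dm6 from exon alignments. The authors state limits on UMIs, genes, entropy and mitochondrial RNA, and Scrublet for doublets. No doublet caller was run here. Bulk values are the authors' normalised signal per gene from Smart-seq3 libraries. STAR is named in the submitters' processing notes. The annotation, the use of strand and the bulk normalization are not given in the sources used here.

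Members and lists were chosen with earlier results of these data known. Gates used UMIs of a cell and its TP10K: Pdf at least 200, AstA 30, CCHa1 15, CNMa 5 with 3 UMIs, Pvf3 25, br 15 with 2 Cht6 UMIs, ct with 2 UMIs and 1 of CrzR, CG34351 5 with 3 UMIs, Achl 5 with 3 UMIs. Cells in 2 or more gates (117) were left out, as were gates with fewer than 10 cells in a library. UMIs were summed per gate and library and fitted with edgeR 4.0.16 (quasi-likelihood, TMM, library as a block, genes with at least 10 counts in 5 sums) in R 4.3.3. The design named 9 gates, and 8 were fitted. Rhythm fits had no block. The library was a block because all gates of a library come from the same brains. Bulk values were tested with limma 3.58.1 on log2(value + 1), keeping genes that reached 1 in 2 or more libraries. Named were, per gate, up to 3 called members furthest above and 2 furthest below the other gates, up to 4 each way in the DN3 and clock cell comparisons, and every called member in rhythm and bulk. Other genes in the text were chosen after their values were seen. DESeq2 1.42.0, no TMM, other filters, other thresholds and leaving out each library were alternatives. The fits were also run on simulated counts, drawn without added effects of library or date and scored at a threshold under 2-fold. That run does not test the calls as made here. Positions are from an Ensembl annotation of the dm6 assembly. Counting intervals cover counting error only.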

Additional observations from a re-analysis of the deposited data

Results flagged for a closer look

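Single libraries stood far from the rest of their gate, by the gap to the nearest library over the whole range, in 9 of 81 groups of libraries tested (11.1%). The nominal rate of the rule is about 1 in 20. Libraries differ in ZT and some groups rest on a single UMI, so these rates do not show an excess. High libraries were found for dpr16 in the Pdf gate (0.219 TP10K in ZT18 replicate 1, with the nearest library at 0.0633), DIP-zeta in CCHa1 (2.02 TP10K in ZT02 replicate 2, with the nearest library at 0.961) and DIP-eta in CCHa1 (0.0191 TP10K in ZT10 replicate 1, with the nearest library at 0, a single UMI). In CNMa they were DIP-beta (0.0315 TP10K in ZT02 replicate 2, with the nearest library at 0.00902) and dpr9 (0.283 TP10K in ZT02 replicate 2, with the nearest library at 0.0865). In CrzR with ct they were dpr20 (0.0269 TP10K in ZT10 replicate 1, with the nearest library at 0, a single UMI) and dpr2 (1.63 TP10K in ZT14 replicate 2, with the nearest library at 0.887). Among cells without clock genes dpr13 was high (4.05 TP10K in ZT02 replicate 1, with the nearest library at 2.82). A low library was found for dpr1 in AstA (3.44 TP10K in ZT10 replicate 1, with the nearest library at 4.84).

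The 24 h patterns of 4 members differed between gates in a test of the difference itself (edgeR, adjusted over all genes). For DIP-beta the adjusted p was 1.8e-15 between Pdf and AstA, 1.5e-07 between Pdf and CCHa1, 6.3e-06 between Pdf and CrzR with ct, 4.3e-11 between AstA and CCHa1, 2.2e-08 between AstA and CrzR with ct and 3.1e-05 between CCHa1 and CrzR with ct. It was 0.00049 for DIP-kappa between Pdf and CrzR with ct, 0.0035 for dpr1 between Pdf and CCHa1 and 1.7e-05 for dpr11 between CCHa1 and CrzR with ct.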

How the results depend on the processing

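No result with a sign reversed. A rhythm value is a swing or a p-value without a sign, so it could only keep, lose or gain a call. Over 116 named results, 2011 of 2238 alternative values kept the call and, where there is one, the direction. Of the rest 222 lost the call and 5 gained one, and 63 results held in all their alternatives. The 36 values without a minimum swing could not lose a call, since that setting only drops a limit. Calls were lost in 13 of 836 values for gates, 1 of 132 for DN3, 16 of 147 for gated cells, 123 of 905 for rhythms and 69 of 218 for bulk. Rhythm calls over the gates went from 32 to 19 without cells over 15000 UMIs and to 52 with no filter on low values. In all clock cells they went from 2 to 1 with at least 2 clock genes, 0 without cells over 15000 UMIs and 1 without TMM. Bulk calls with a pseudocount of 0.1 were 3 for R77H08, 1 for split-0367 and 5 for VT055068, against 6, 3 and 11. For split-0367 there were 6 with a pseudocount of 10 and 7 with edgeR. The cause of these changes was not tested.

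Leaving out 1 library gave 114 to 123 calls over the gates, 8 to 11 for DN3, 6 to 8 for gated cells, 20 to 41 for rhythms, 0 to 3 for rhythms in all clock cells, 9 to 10 for rhythm differences, 2 to 7 for R77H08, 1 to 8 for split-0367 and 1 to 11 for VT055068. R77H08 had 2 without VT055068 B or either split-0367 library. split-0367 had 8 without R77H08 A, 6 without R77H08 B and 1 without VT055068 A or either of its own. VT055068 had 1 without its own A, 2 without its own B and 7 without either split-0367 library.

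Without the library block there were 121, 10 and 7 calls for gates, DN3 and gated cells, and 9 rhythm differences. With the label date as a block there were 30 rhythm calls over the gates and 3 in all clock cells. The date was given by the labels for 5 pairs of libraries, and 40 pairs did not share one. In bulk the numbers A and B were not shown to pair samples (correlations of deviations 0.079, 0.074 and 0.0018), and with that block 6, 6 and 11 members were called for R77H08, split-0367 and VT055068. The depth limits members with few UMIs in a gate, and rhythms in gates with 1 library at most times.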
